A study of Mus musculus with 6 samples.

Results

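The 8 genes described here encode the hormones of the pancreatic islet: Ins1 and Ins2, the pair of mouse insulin genes, Iapp (islet amyloid polypeptide), Gcg (proglucagon), Sst (somatostatin), Ppy (pancreatic polypeptide), Pyy (peptide YY) and Ghrl (ghrelin). Their probes were taken by name, as every array probe that is not a control and carries one of these symbols, and not by any measured value. The list of genes itself was drawn up with earlier results of these data known. Each of the 8 genes had 1 such probe, and all 8 passed the filter on dim probes, among 14167 genes tested in all.

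RNA was taken from whole pancreas at postnatal day 0.5, all from the strain C57BL/6N, with 2 samples for each of 3 genotypes. Spink3+/+ was the wild type control. Spink3-/- lacks Spink3, a trypsin inhibitor of acinar cells, and by the design text its acinar cells all undergo a death with autophagy that is not apoptosis. Spink3-/-XKI/+ carries the same loss of Spink3 with 1 XKI allele, which the labels do not explain, and part of its acinar cells are described as normal and the others as dying. The labels name the acinar cell as the affected cell in both mutants and say nothing of the islets. All groups had the same strain, age and tissue, and no treatment is named.

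Islets are clusters of endocrine cells scattered through the acinar tissue. Beta cells make insulin and amyloid polypeptide, alpha cells glucagon, delta cells somatostatin, PP cells pancreatic polypeptide and, in the fetal and newborn pancreas, epsilon cells make ghrelin; peptide YY is made by several islet cell types early in life. Each hormone is cut from a longer precursor by convertases (Pcsk1, Pcsk2) and a carboxypeptidase (Cpe) in secretory granules, and some are then amidated by Pam.

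The probes are shown because each value rests on 1 of them, and because they fall in different parts of the messages. Positions are those of build mm9 as the scanner files give them, and the first 2 probes shown read the carboxyl ends of precursors. The Ins1 probe (chr19:52339385-52339444, plus strand) holds the last 17 whole codons of the precursor, which encode the end of the insulin A chain, and the stop codon, in capitals. The Sst probe (chr16:23889776-23889835, minus strand) holds the last 6 codons of somatostatin and its stop codon, in capitals.
Ins1: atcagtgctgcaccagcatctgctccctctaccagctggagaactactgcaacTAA
Sst: aagacattcacatcctgtTAGctttaatat

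Ppy and Pyy belong to 1 peptide family and are neighbours on chromosome 11 in the RefSeq gene order of GRCm38.p6. Their probes lie 6433 bases apart in mm9, at chr11:101961581-101961877 for Ppy and chr11:101968311-101968370 for Pyy, both on the minus strand. The Ppy probe has 60 bases but covers 297 bases of genome, so it spans a splice junction. Both probes hold the codons of glycine, lysine and arginine (capitals), the signal at which these precursors are cut and amidated. The longest run of bases shared by any 2 of the 8 probes (28 pairs) was 7. Probes were compared only with probes. Whether a probe also binds the message of a related gene, as between Ins1 and Ins2, was not tested.
Ppy: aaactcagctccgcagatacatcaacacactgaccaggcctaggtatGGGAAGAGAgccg
Pyy: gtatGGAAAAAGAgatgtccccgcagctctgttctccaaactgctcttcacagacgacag

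The probes of Ins2 (chr7:149864566-149864625, minus strand), Ghrl (chr6:113666114-113666173, minus strand) and Iapp (chr6:142252275-142252334, plus strand) hold the letters AATAAA, those of the polyadenylation signal, shown in capitals within 30 bases. Of all 55681 probes, 10.1% hold these letters on their own strand and 3.74% on the other, so the letters are not particular to these probes. The Gcg probe (chr2:62312685-62312744, minus strand) holds them on neither strand, and its first 30 bases are shown. No other probe on the array shared a run of 20 bases with any of the 8, which again compares probes and not whole messages.
Ins2: ccctctgcaatgAATAAAacctttgaatga
Ghrl: taccactttaagAATAAAtgttcacctgta
Iapp: ctcaagtttaacAATAAAgaagaccatggg
Gcg: gtcacaacacctggattatactaacagaag

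Levels are given as log2 of the processed signal minus the log2 of the array's 75th percentile, so 0 is that percentile and each unit is a doubling. Every one of the 8 probes was well above background on all 6 arrays, and none was saturated. The 75th percentile itself ran from 111.2 to 155.3 signal units over the arrays. Spink3, the check of the labels, stood at 9.84 and 10.26 in Spink3+/+, at 3.25 and 2.95 in Spink3-/- and at 2.64 and 2.33 in Spink3-/-XKI/+. It was the gene with the largest difference in both comparisons with wild type, at -6.95 (SE 0.23, limma adjusted p = 0.00103) and -7.56 (SE 0.23, limma adjusted p = 0.000613). Whether the 2 samples of a genotype were separate animals is not said, so every p-value refers to the spread among these 6 samples, and that spread may be technical.

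The insulin genes varied little. Ins1, the copy of insulin found in rodents beside Ins2, had levels of 10.14 and 10.12 in the Spink3+/+ samples, 10.08 and 10.26 in Spink3-/- and 10.41 and 10.31 in Spink3-/-XKI/+. Both Spink3-/-XKI/+ arrays were above the other 4, while the Spink3-/- arrays lay on either side of wild type. Ins2, the ancestral insulin gene, had levels of 10.33 and 10.35 in Spink3+/+, 10.25 and 10.51 in Spink3-/- and 10.50 and 10.56 in Spink3-/-XKI/+. Here the Spink3-/-XKI/+ arrays were above both wild type arrays, and the second Spink3-/- array lay between the Spink3-/-XKI/+ arrays.

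The difference of Spink3-/- from wild type was 0.04 for Ins1 (95% interval -0.36 to 0.45) and 0.04 for Ins2 (-0.38 to 0.46). In linear terms, the Spink3-/- level of Ins1 was 1.03 times that of wild type, with an interval from 0.780 to 1.36. For Spink3-/-XKI/+ against wild type, the differences were 0.23 for Ins1 (-0.17 to 0.63) and 0.19 for Ins2 (-0.23 to 0.61). Against Spink3-/-, they were 0.19 (-0.22 to 0.59) and 0.15 (-0.27 to 0.57). None of these 6 differences passed, and their limma adjusted p-values ran from 0.792 to 0.999.

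Iapp, a peptide that beta cells release with insulin, spread more widely. Its levels were 6.04 and 5.97 in Spink3+/+, 5.97 and 5.62 in Spink3-/- and 6.39 and 5.84 in Spink3-/-XKI/+. The range over the 6 arrays, 0.77, was the widest of the 8 genes, and its arrays overlapped in all 3 comparisons. The mean difference of Spink3-/- from wild type, -0.21 (95% interval -0.80 to 0.39), was the largest in size among the hormones in that comparison, but it was -0.03 without the second Spink3-/- array and -0.38 without the first. Spink3-/-XKI/+ stood 0.11 above wild type (-0.48 to 0.71) and 0.32 above Spink3-/- (-0.28 to 0.91), the latter between 0.041 and 0.60 with 1 array left out.

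Gcg encodes glucagon in alpha cells and the glucagon-like peptides in the gut. Its levels were 5.50 and 5.67 in Spink3+/+, 5.83 and 5.45 in Spink3-/- and 5.91 and 5.51 in Spink3-/-XKI/+. Within both mutants 1 array was high and the other low, so all 3 genotypes overlapped. The differences were 0.05 (95% interval -0.50 to 0.60) for Spink3-/- against wild type, 0.12 (-0.43 to 0.68) for Spink3-/-XKI/+ against wild type and 0.07 (-0.48 to 0.62) between the mutants.

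Sst encodes somatostatin, which restrains the release of insulin and glucagon. Its levels were 5.07 and 5.10 in Spink3+/+, 5.14 and 5.04 in Spink3-/- and 4.83 and 4.67 in Spink3-/-XKI/+. Both Spink3-/-XKI/+ arrays were below the other 4, whose values lay within 0.10 of each other. Spink3-/- differed from wild type by 0.01 (95% interval -0.39 to 0.41). Spink3-/-XKI/+ differed by -0.34 from wild type (SE 0.16, 95% interval -0.73 to 0.06, limma adjusted p = 0.715) and by -0.34 from Spink3-/- (SE 0.16, 95% interval -0.74 to 0.05, limma adjusted p = 0.723). Neither passed the threshold, and both intervals include 0.

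Ppy encodes pancreatic polypeptide. Its levels were 3.58 and 3.97 in Spink3+/+, 3.73 and 3.94 in Spink3-/- and 4.06 and 3.97 in Spink3-/-XKI/+. The wild type arrays were 0.39 apart and spanned the Spink3-/- arrays, and the Spink3-/-XKI/+ arrays were above Spink3-/- but not clear of wild type. Pyy, its neighbour, had levels of 5.17 and 5.44 in Spink3+/+, 5.18 and 5.45 in Spink3-/- and 5.66 and 5.73 in Spink3-/-XKI/+. The wild type and Spink3-/- arrays of Pyy were nearly the same pair of values, with both Spink3-/-XKI/+ arrays above them.

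The mean Pyy difference of Spink3-/- from wild type was 0.002 (95% interval -0.46 to 0.47), the smallest in size among the hormones. Spink3-/-XKI/+ stood 0.39 above wild type (SE 0.19, 95% interval -0.08 to 0.85, limma adjusted p = 0.717) and 0.38 above Spink3-/- (SE 0.19, 95% interval -0.08 to 0.85, limma adjusted p = 0.732). Neither passed. For Ppy, the differences were 0.05 (-0.43 to 0.54), 0.24 (-0.25 to 0.73) and 0.18 (-0.31 to 0.67) in the same order of comparisons.

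Ghrl encodes ghrelin, the product of epsilon cells, which are most frequent around birth. Its levels were 5.51 and 5.60 in Spink3+/+, 5.28 and 5.81 in Spink3-/- and 5.18 and 5.40 in Spink3-/-XKI/+. The Spink3-/-XKI/+ arrays were below both wild type arrays, and the Spink3-/- arrays enclosed wild type. The differences were -0.01 (95% interval -0.56 to 0.54) for Spink3-/- against wild type, -0.26 (-0.82 to 0.29) for Spink3-/-XKI/+ against wild type and -0.25 (-0.81 to 0.30) between the mutants.

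**Figure D1:**
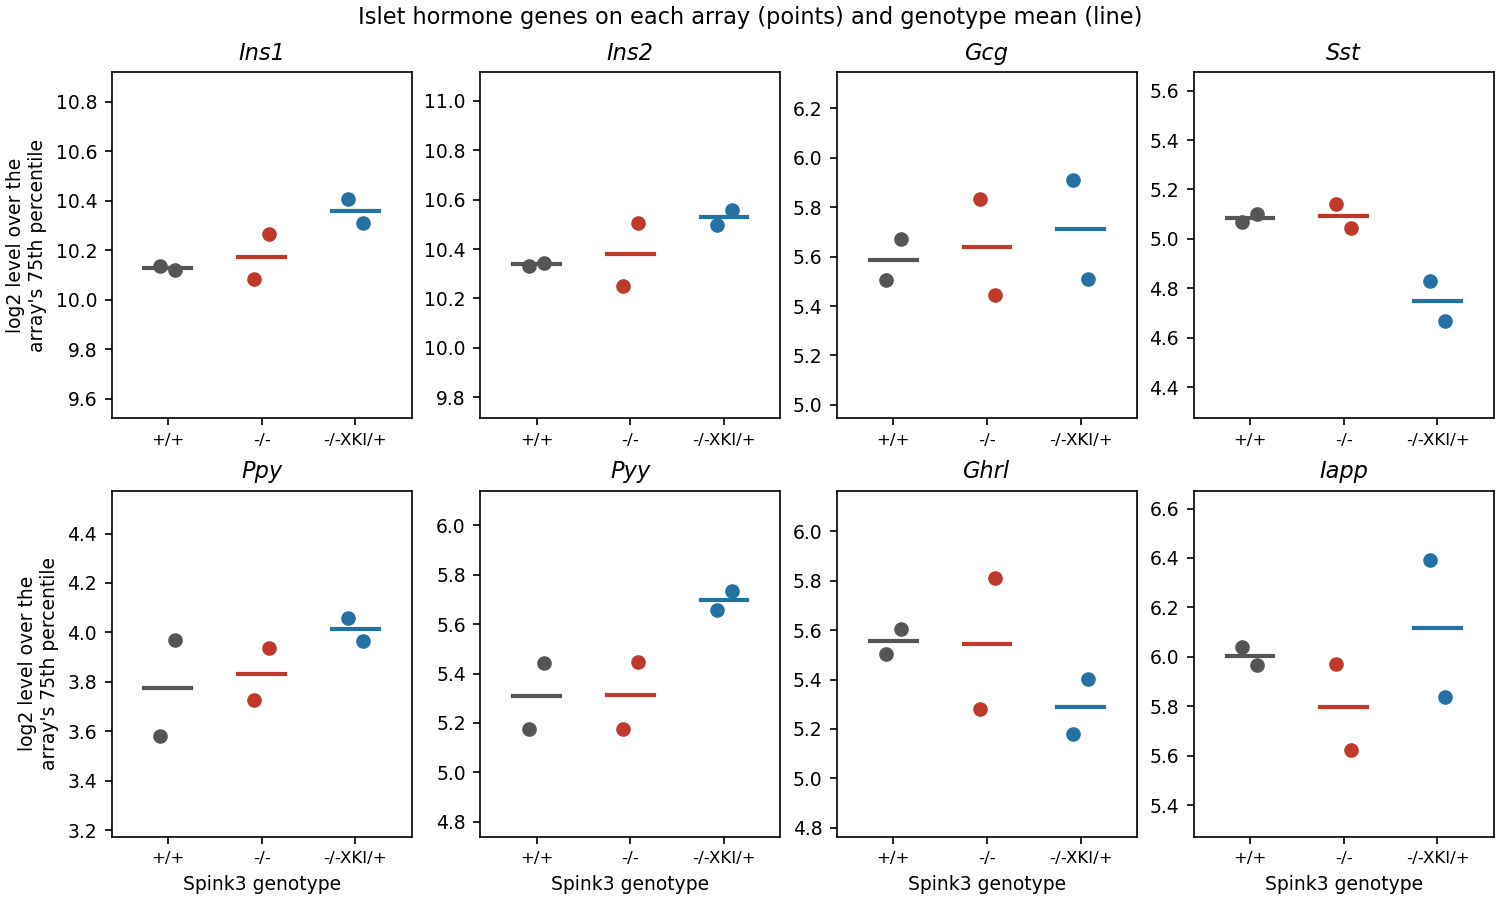
Level of each islet hormone gene (log2 over the array's 75th percentile) on each array, by Spink3 genotype; points are arrays, lines are means of 2 arrays, and every panel covers the same log2 span. Sst is lowest on both Spink3-/-XKI/+ arrays (4.83 and 4.67) and Pyy highest on them (5.66 and 5.73), while the Spink3-/- arrays overlap wild type for all 8 genes.

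Taking the order of genotype means, 6 of the 8 hormones were highest in Spink3-/-XKI/+ (Ins1, Ins2, Iapp, Gcg, Ppy and Pyy) and Sst and Ghrl were lowest there. Of all genes, 56.3% were higher in Spink3-/-XKI/+ than in wild type and 57.3% higher than in Spink3-/-. Neither quantile, median nor spike-in scaling turned the direction of Spink3-/-XKI/+ against either genotype for the hormones. A fit with the slide row as a block turned Ins2 against wild type to -0.065. In the fit without the block, the 95% interval of every hormone difference between genotypes included 0, though some differences were larger than their SE. Over the whole set, 0 of 8 hormones were called (limma adjusted p under 0.05) in any comparison, where the background over all genes was 0.0353% for Spink3-/- against wild type and 0.00706% for each of the other 2 comparisons. With so few calls among all genes, a count of 0 among 8 is no result about the hormones. At an unadjusted p under 0.05 the count was also 0 of 8 in each comparison, beside 5.06%, 7.57% and 7.21% of all genes.

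Between Spink3-/- and wild type, 0 of 8 hormones had arrays that did not overlap, against 32.7% of all genes. The median size of the difference, whatever its direction, was 0.04 for the hormones and 0.16 for all genes, and the signed medians were 0.03 and -0.01. Every hormone level was 3.58 or above, while all genes include dim ones, and the part of brightness in these sizes was not tested. The signed median of the hormones turned to -0.06 with quantile normalization and was 0.13 with spike-in scaling. Between Spink3-/-XKI/+ and wild type, 5 of 8 did not overlap (Ins1, Ins2 and Pyy higher, Sst and Ghrl lower), against 42.1% of all genes. Between Spink3-/-XKI/+ and Spink3-/-, 4 of 8 did not overlap (Ins1, Ppy and Pyy higher, Sst lower), against 34.5%. The median size of the difference was here larger for the hormones than for all genes, at 0.23 against 0.19 and at 0.22 against 0.18. The signed medians in these comparisons were 0.16 and 0.17 for the hormones and 0.04 for all genes in both. The comparisons share samples, so their values are not independent of each other.

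**Figure D2:**
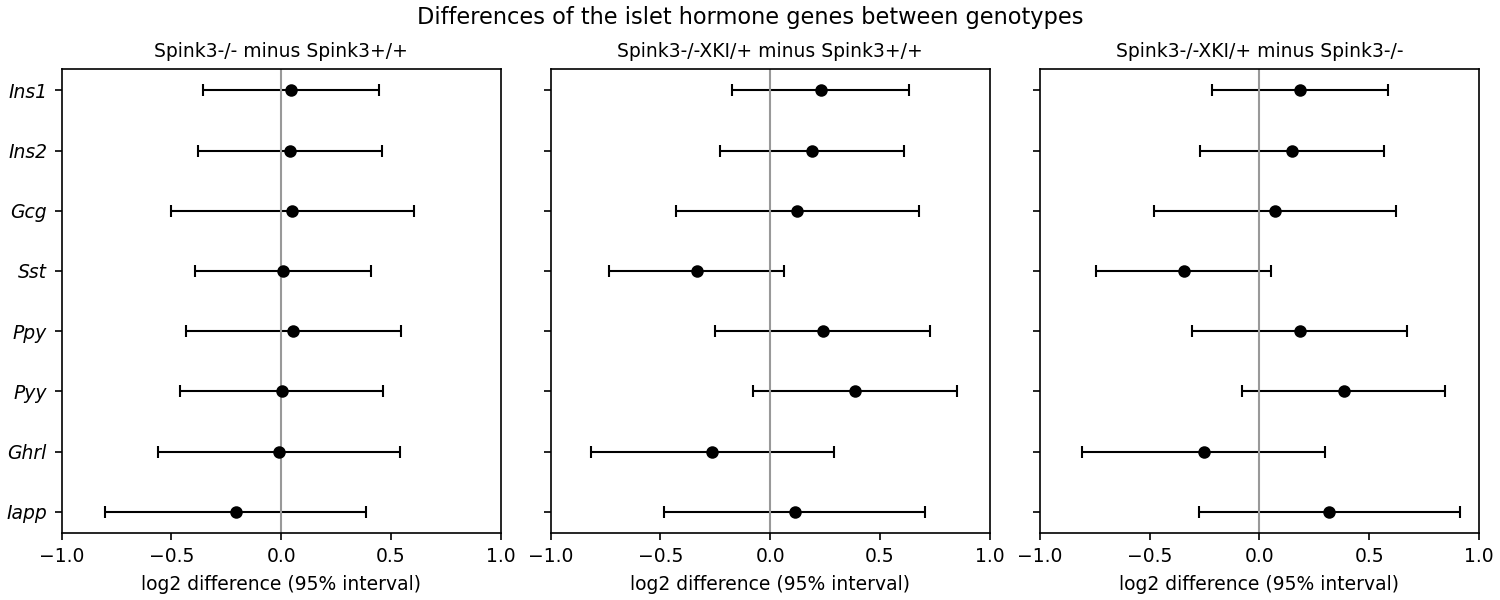
Log2 difference of each islet hormone gene in the 3 comparisons, with 95% intervals of the limma fit on all 6 arrays; the vertical line marks no difference. All 24 intervals include 0, and in Spink3-/- against wild type 7 of the 8 points lie within 0.06 of it.

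The intervals give the sizes that these arrays leave possible. For Spink3-/- against wild type, they ran over the 8 hormones from a level 0.574 times that of wild type to 1.52 times. For Spink3-/-XKI/+ against wild type, the outer bounds were 0.568 and 1.80 times, and against Spink3-/- they were 0.572 and 1.88 times. A p that misses the threshold does not show that the genotypes have equal levels. In whole tissue, fewer cells of a type and less RNA per cell cannot be told apart.

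The Gcg and Sst probes were each printed 10 times on every array, which shows how much of their spread lies within an array. For Gcg, the SD over the spots of an array was between 0.03 and 0.06, while the 2 arrays of a genotype were 0.17 apart in Spink3+/+, 0.39 in Spink3-/- and 0.40 in Spink3-/-XKI/+. The spread between arrays was thus several times the error of the spots. For Sst, the SD over spots was 0.04 to 0.07 and the arrays of a genotype were 0.03, 0.10 and 0.16 apart in the same order. All spots of Sst on the Spink3-/-XKI/+ arrays, the highest at 4.90, were below all its spots on the other 4 arrays, the lowest at 4.91. Spots of 1 array share a sample and are no replicates of the genotype.

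**Figure D3:**
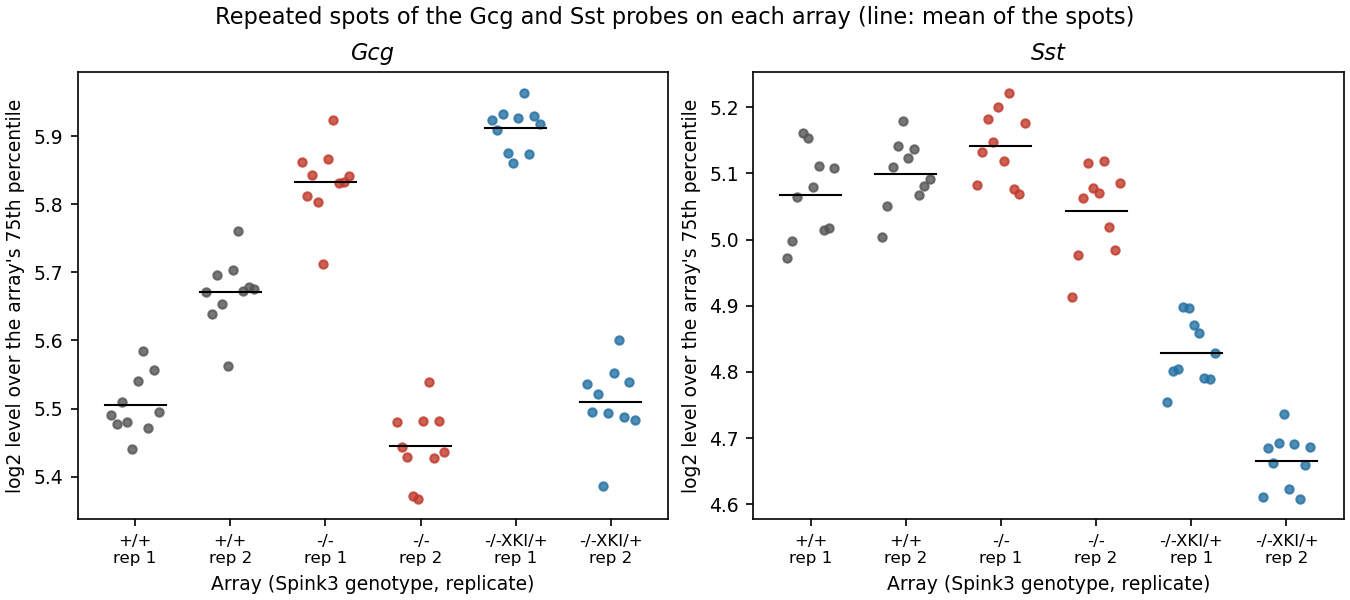
Level of each of the 10 repeated spots of the Gcg and Sst probes (log2 over the array's 75th percentile) on each of 6 arrays; lines are means of the spots. Gcg separates arrays of 1 genotype (gaps of 0.39 and 0.40 in the mutants), while for Sst both Spink3-/-XKI/+ arrays lie below all others.

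Iapp and Gcg had 1 high and 1 low array in each mutant, and in both the first replicate was the high one. The same arrays had the higher 75th percentile, 155.3 against 111.2 in Spink3-/- and 141.6 against 118.0 in Spink3-/-XKI/+. The first wild type array also had the higher one, 138.3 against 127.7. On it Iapp was higher (6.04 against 5.97) and Gcg lower (5.50 against 5.67). This percentile is subtracted from every level, so a higher one lowers the level. What else lies behind the gaps was not tested. Ghrl had its widest gap, 0.53, between the Spink3-/- arrays, in the opposite direction, with the second array higher. Before the 75th percentile was subtracted, its processed signals there lay close together, at 6037 on the first array and 6234 on the second. Most of this gap thus entered with the scaling. The median gap between arrays of a genotype over the 8 hormones was 0.09 in Spink3+/+, 0.26 in Spink3-/- and 0.13 in Spink3-/-XKI/+, beside 0.19, 0.28 and 0.23 over all genes.

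**Figure D4:**
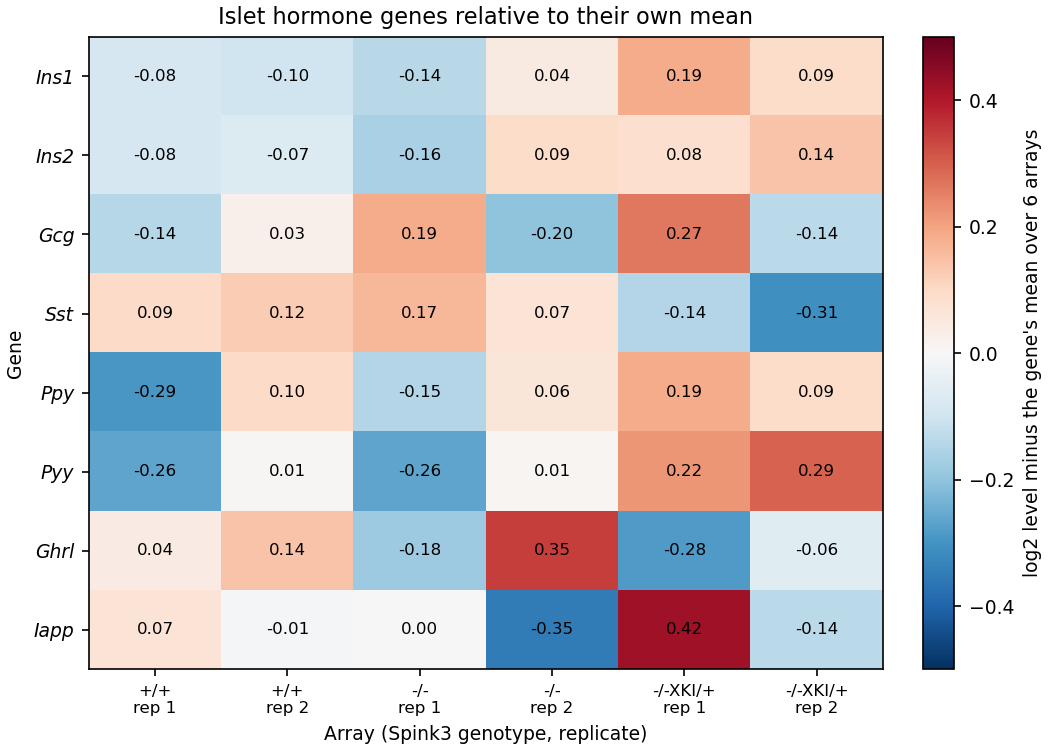
Level of each islet hormone gene on each array minus that gene's mean over the 6 arrays (log2; red above, blue below the mean). Ins1 and Ins2 share their low arrays, Gcg and Iapp are both high on the first Spink3-/-XKI/+ array (0.27 and 0.42), and Sst is low on both Spink3-/-XKI/+ arrays (-0.14 and -0.31).

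All arrays lay on 1 slide, in 2 rows, with both wild type arrays and the first Spink3-/- array in one row and the others in the second. No row holds both Spink3-/-XKI/+ and wild type, so values within a row are given for the other 2 comparisons, and Spink3-/-XKI/+ meets wild type in a fit with the row as a block only through the Spink3-/- arrays. In the first row, the Spink3-/- array differed from the wild type mean by 0.06 for Sst, -0.13 for Pyy, -0.05 for Ins1, -0.09 for Ins2, 0.24 for Gcg, -0.05 for Ppy, -0.27 for Ghrl and -0.03 for Iapp. In the second row, the Spink3-/-XKI/+ mean differed from the Spink3-/- array by -0.29 for Sst, 0.25 for Pyy, 0.10 for Ins1, 0.02 for Ins2, 0.27 for Gcg, 0.08 for Ppy, -0.52 for Ghrl and 0.49 for Iapp. The directions of the comparison between the mutants were therefore kept within the row for all 8. The sizes were smaller there for Sst, Pyy, both insulins and Ppy, and larger for Gcg, Ghrl and Iapp. Each of these values rests on a single Spink3-/- array. The fit with the row as a block gives the same values, with limma adjusted p-values from 0.911 to 0.997 in the first comparison and from 0.652 to 0.991 in the second. In that fit Spink3-/-XKI/+ against wild type stood at 0.048 for Ins1, -0.065 for Ins2, 0.51 for Gcg, -0.24 for Sst, 0.028 for Ppy, 0.12 for Pyy, -0.79 for Ghrl and 0.46 for Iapp (limma adjusted p from 0.641 to 0.995). Against the values without the block, the insulins, Sst, Ppy and Pyy came nearer to 0 or past it, and Gcg, Ghrl and Iapp moved away from it.

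To describe which genes ran alongside each hormone, every gene was centred on its own mean over the 6 arrays and the root mean square (RMS) difference between 2 genes was taken over those arrays. A small RMS says that 2 probes gave parallel profiles, and for flat profiles many genes are near. Ins1 and Ins2 differed by an RMS of 0.05, so that Ins2 ranked 32 among the 14166 other genes for Ins1, and Ins1 ranked 90 for Ins2. Whether each insulin probe reads only its own message was not tested. Pyy and Ppy differed by 0.11 and ranked 140 and 247 in each other's order (Ppy for Pyy, then Pyy for Ppy). Gcg and Iapp differed by 0.15, with Gcg in rank 391 for Iapp and Iapp in rank 846 for Gcg. Ghrl and Iapp, at 0.42, were the least alike of the hormones.

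The nearest other genes of Ins1 were Wdpcp, Vps35l and Acaa1b (RMS 0.03 each), and those of Ins2 were Cers4, LOC100045367 and Rpl24 (0.02 each). Those of Gcg were Ash1l (0.03), Prdx1 and Ppil3 (0.05 each), and those of Sst were Alg11 (0.04), Tspan5 and Ggnbp2 (0.05 each). For Ppy they were Fam149a (0.05), Ucp3 and Gpr162 (0.06 each), and for Pyy they were Tgm2, Mmrn1 and Rps6kl1 (0.05 each). For Ghrl they were Ddx54 (0.04), Tmem185a and Slc9a8 (0.05 each), and for Iapp Gm14418, Ushbp1 and Cryl1 (0.05 each). None of these 24 genes is on the endocrine or tissue lists used here. The median RMS to all genes was between 0.23 and 0.32 over the 8 hormones.

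The machinery that turns these precursors into hormones was measured beside them. Of 22 genes for prohormone processing and granules, 19 were tested, and 0 were called in any comparison. Their median difference was 0.01 for Spink3-/- against wild type, 0.11 for Spink3-/-XKI/+ against wild type and 0.21 between the mutants. Chga encodes chromogranin A, a granule core protein. Its levels were 5.83 and 5.73 in Spink3+/+, 5.93 and 5.64 in Spink3-/- and 6.48 and 6.14 in Spink3-/-XKI/+, so the Spink3-/-XKI/+ arrays were above the other 4. It stood 0.53 above wild type (SE 0.20, limma adjusted p = 0.632) and 0.53 above Spink3-/- (SE 0.20, limma adjusted p = 0.648).

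Like Chga, 14 of the 19 granule genes were higher in Spink3-/-XKI/+ than in wild type and 13 of 19 higher than in Spink3-/-. Over all genes tested, the shares that were higher were 56.3% and 57.3%. The widest values in the opposite direction were those of Scg2 and Pcsk1. Scg2, secretogranin II, had a difference of -0.51 between Spink3-/-XKI/+ and wild type (limma adjusted p = 0.672). Pcsk1, the convertase that starts the cutting of proinsulin, had -0.59 between the mutants (limma adjusted p = 0.692). In Spink3-/- against wild type, the widest values were 0.40 for Sytl4, which tethers granules, and -0.38 for Rph3al.

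Genes of the islet cell types were described by the lists for beta, alpha and the rarer cells, and 0 of their members were called. The lists share some genes with each other or with other lists, such as Etv1, which is on the alpha list and that of the rarer cells. For 20 of 22 beta cell genes tested, the medians were 0.03, 0.04 and 0.01 in the order Spink3-/- against wild type, Spink3-/-XKI/+ against wild type and between the mutants. Pdx1, a regulator of insulin transcription, had levels of -0.97 and 1.43 in Spink3+/+, -1.03 and -0.89 in Spink3-/- and -0.57 and -0.76 in Spink3-/-XKI/+. Its differences of -1.19 and -0.89 from wild type rest on the second Spink3+/+ array, which alone was high. Without that array they were 0.005 and 0.31, and without the first wild type array they were -2.39 (limma adjusted p = 0.0394) and -2.09 (limma adjusted p = 0.0376), which passed.

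Nnat, neuronatin, a small membrane protein of beta cells and brain, had a difference of 0.79 between Spink3-/- and wild type and -0.48 between the mutants. Both rest on the first Spink3-/- array, at 2.38 against 0.95 to 1.51 elsewhere, and were 0.29 and 0.023 without it. Prlr, the prolactin receptor, had -0.67 between the mutants, which was -0.10 without the same array. Ero1b, an oxidase for disulfide bonds in proinsulin, had -0.43 between Spink3-/-XKI/+ and wild type. None of these passed, with limma adjusted p-values from 0.740 to 0.987. Ero1b was also lower in Spink3-/- than in wild type, by a wider -0.71, and was not called there either.

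For 10 of 15 alpha cell genes tested, the medians were 0.10, 0.18 and 0.01. Gc, a vitamin D binding protein of alpha cells and liver, had levels of 2.90 and 2.97 in Spink3+/+, 3.77 and 3.62 in Spink3-/- and 3.11 and 2.88 in Spink3-/-XKI/+, the 2 Spink3-/- arrays being above the other 4. Its difference of 0.76 from wild type (limma adjusted p = 0.733) stood beside a median of 1.34 over the 15 liver genes tested in that comparison. Summed over the list, liver genes were at 6.07 and 6.43 in Spink3+/+, 7.07 and 7.02 in Spink3-/- and 6.23 and 6.65 in Spink3-/-XKI/+, and their part in the value of Gc was not tested. Irx1, an alpha cell factor, stood at 0.29 in Spink3-/- against wild type. Slc38a5, an amino acid transporter of alpha cells, had -0.46 between the mutants, where Gc had -0.70. In Spink3-/-XKI/+ against wild type, the widest values were 0.37 for Etv1 and 0.27 for Gcgr, the glucagon receptor.

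The list for delta, PP and epsilon cells had 7 of 13 genes tested, with medians of -0.003, 0.20 and 0.08. Hhex, the factor that maintains delta cells and somatostatin, had levels of 0.96 and 1.63 in Spink3+/+, 0.83 and 0.60 in Spink3-/- and 0.72 and 0.48 in Spink3-/-XKI/+. Both mutants lay below both wild type arrays for Hhex, at -0.58 (limma adjusted p = 0.987) and -0.69 (limma adjusted p = 0.632), whereas Sst overlapped between Spink3-/- and wild type. Lepr, the leptin receptor, also expressed by delta cells, was at 1.27 and 1.497 above wild type in Spink3-/- and Spink3-/-XKI/+ with a wide error (SE 0.63), and its first wild type array alone was low, at 4.62 against 6.56 to 7.30 elsewhere. Without that array the differences of Lepr were 0.29 and 0.52. Acsl1 had -0.50 and Etv1 0.37 between the mutants.

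Transcription factors of the endocrine lineage were also not called: 0 of 17 tested of 22, with medians of -0.11, 0.06 and 0.01. Nkx2-2, needed for beta cell fate, had levels of 0.68 and 0.72 in Spink3+/+, 1.40 and 1.22 in Spink3-/- and 1.20 and 1.43 in Spink3-/-XKI/+, so both mutants lay above wild type. The difference of Spink3-/- was 0.61 (SE 0.18, limma adjusted p = 0.875). Foxa2, a factor of gut and pancreas epithelium, had 0.34 between the mutants, the widest value among the list's genes above background on all 4 arrays compared.

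Of 19 receptors for these hormones, 11 were tested, 0 were called and the medians were 0.10, 0.20 and 0.15. Npy4r, the receptor of pancreatic polypeptide, stood 0.44 and 0.68 above wild type in Spink3-/- and Spink3-/-XKI/+, with the second Spink3-/- array (2.94) and both Spink3-/-XKI/+ arrays (2.59 and 2.86) above the other 3 (2.03 to 2.05). Ramp1, a partner of the amylin receptor, had -0.72 in Spink3-/- against wild type and 0.80 between the mutants. Calcr, the receptor that it partners, did not pass the filter, nor did Sstr1, Sstr2, Ghsr, Npy1r, Npy2r, Npy5r and Npy6r. Sstr3, a somatostatin receptor, had 0.44 in Spink3-/-XKI/+ against wild type, and Glp1r, the receptor of glucagon-like peptide 1, had 0.40 between the mutants.

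**Figure D5:**
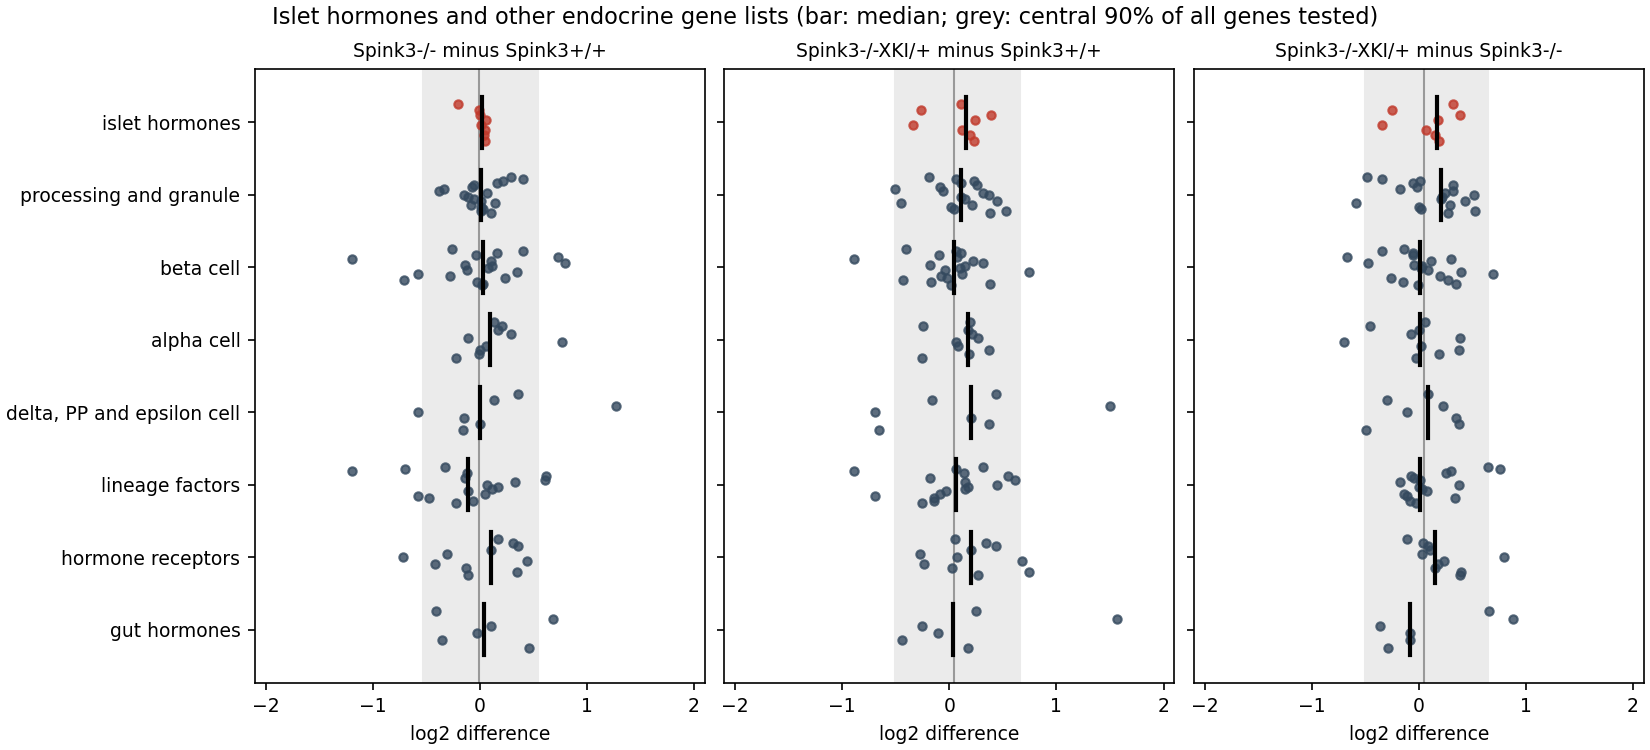
Log2 difference of every tested gene (points) of the islet hormone set and 7 other endocrine lists in the 3 comparisons, with list medians (black bars), the median of all genes tested (grey line) and their central 90% (grey band). Hormones in Spink3-/- against wild type have the narrowest range of the lists shown, from -0.21 to 0.05. Every hormone level was 3.58 or above, while other lists include dim genes such as Pdx1. The part of brightness in the range was not tested. No gene shown was called.

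Several hormones are also made in the gut, so markers of gut cells were looked at beside them. Of 10 genes of gut endocrine cells outside the islet, 6 were tested and 0 called, with medians of 0.04, 0.03 and -0.08, and Gip, Nts, Insl5 and Vip did not pass the filter. Gal, galanin, had -0.36 and -0.44 against wild type in Spink3-/- and Spink3-/-XKI/+, Cck, cholecystokinin, 0.46 in Spink3-/- and -0.29 between the mutants, and Sct, secretin, -0.26 in Spink3-/-XKI/+ against wild type and -0.36 between the mutants. Of 17 genes of gut and stomach epithelium, 5 were tested. Fabp2, Fabp1, Cdx1, Cdx2, Muc2, Cdh17, Apoa4, Alpi, Gkn2, Tff1, Atp4a and Atp4b were not well above background on both arrays of any genotype. The summed level of the list was 3.17 to 3.22 in Spink3+/+, 2.56 to 2.87 in Spink3-/- and 3.23 to 3.31 in Spink3-/-XKI/+. In Spink3-/-XKI/+, where that sum was highest and close to wild type, Pyy was highest while Sst and Ghrl were lowest. The part of gut cells in these values was not tested. Lgals4, an intestinal lectin, had -0.71 in Spink3-/- against wild type and 0.97 between the mutants, Tff3 had 0.80, 0.45 and -0.35 over the 3 comparisons, and Vil1 had -0.61 in Spink3-/-XKI/+ against wild type.

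The labelled tissue carried its markers, and other tissue lists differed in their medians, with 0 members called on any. All 18 acinar genes were above background, with a summed level of 13.77 to 13.96 in Spink3+/+, 13.61 to 14.00 in Spink3-/- and 13.84 to 13.85 in Spink3-/-XKI/+, and medians of -0.18, 0.02 and 0.07. The summed hormone signal, in which the Ins1 and Ins2 probes are by far the brightest, was at 11.37 to 11.38, 11.31 to 11.51 and 11.56 to 11.59 in the same order. The mean log2 level over the 8 hormones overlapped instead, at 6.42 and 6.53, 6.43 and 6.51, and 6.62 and 6.50. The summed level of the granule list was 8.30 to 8.34, 8.36 to 8.39 and 8.49 to 8.53. Among acinar genes, Pnlip, pancreatic lipase, had the widest values, at -1.41, 1.09 and 2.50, followed by Cela1 at -0.58 in Spink3-/- and Gp2 at 0.91 and 1.33 in the comparisons with Spink3-/-XKI/+. The summed blood level was 8.54 to 9.68 in wild type and 8.06 to 8.18 in Spink3-/-XKI/+, and that of nerve and glia 3.30 to 3.44 and 3.55 to 4.05. The part of these lists in the hormone values was not tested.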

How the data were processed

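Total RNA of 6 whole pancreas samples, 1 array each, was labelled with Cy3 and hybridised to Agilent mouse arrays. The deposited intensity values are processed signals, which per the file headers were background-subtracted and detrended by Agilent Feature Extraction (version 10.7.3.1 in the submitters' processing notes), on a linear scale with no step between arrays. The deposited table for the whole series holds the same intensity values.

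From these, log2 minus each array's 75th percentile was taken, spots of a probe were averaged, and outlier spots were left out. Of 55681 probes, 44.6% were kept, those with some genotype in which both arrays were well above background. A gene was represented by its brightest probe, which gave 14167 genes. Probes were named through RefSeq: the accession named 26762, a current symbol 3819 and an outdated symbol 639, the name in the file stayed on 2044, and 22417 had none.

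limma 3.58.1 in R 4.3.3 was fitted to all 6 arrays (lmFit, contrasts.fit and eBayes, two-sided, 3 residual degrees of freedom), with Benjamini-Hochberg adjustment over all genes, and a gene was called at an adjusted p under 0.05. The script was tested on simulated data. The number of arrays limits the precision. The members and the gene lists were chosen with earlier results of these data known.

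The genes named are the 8 hormones, Spink3, for each list and comparison any called member and otherwise the 2 members with the widest difference among those above background on all 4 arrays compared, and for each hormone the 3 nearest other genes by RMS. A list's summed level is the log2 of its summed signals over the 75th percentile. Alternatives were normexp, quantile, median and spike-in scaling, the series table, filters on dim probes, other rules for the probe of a gene, arrays of 2 genotypes only, the replicate number or slide row as a block, and leaving out each array. Sequences and positions come from the scanner files. 1 gene of the nerve and glia list is not reported here, and the list is described without it.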

Additional observations from a re-analysis of the deposited data

How the results depend on the processing

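The 2 arrays of a genotype limit every interval, and where 1 is left out, the one that stays takes its spread from the remaining genotypes. In all 18 alternatives of each comparison 0 of the 8 hormones were called, the replicate block included (0 called), while calls over all genes ran from 1 to 290, from 0 to 305 and from 0 to 295 in the order Spink3-/- against wild type, Spink3-/-XKI/+ against wild type and between the mutants. Deviations of same-numbered arrays correlated at -0.06 for wild type and Spink3-/-, 0.03 for wild type and Spink3-/-XKI/+ and 0.20 for the mutants. With 2 arrays per genotype, these values cannot decide whether the replicate numbers pair the samples. An unadjusted limma p under 0.05 arose in Spink3-/-XKI/+ for Pyy with normexp, at 0.40 against wild type and 0.38 against Spink3-/- (limma adjusted p = 0.624 and 0.652). It also arose for Ghrl against wild type with the slide row as a block, at -0.79 (limma adjusted p = 0.641). That block took the adjusted p of Spink3 in Spink3-/-XKI/+ against wild type to 0.0805. Spike-in scaling moved the median of all genes in Spink3-/- against wild type to 0.10.

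Signs turned in 29 of 432 settings of a hormone, none of them for Sst or Pyy in Spink3-/-XKI/+. For Spink3-/- against wild type, the row block gave -0.047 for Ins1, -0.087 for Ins2, -0.05 for Ppy and -0.13 for Pyy, quantile normalization -0.028 for Gcg, -0.093 for Sst and -0.10 for Pyy, median scaling -0.012 for Sst and -0.018 for Pyy, normexp -0.004 for Sst and spike-in scaling 0.10 for Ghrl. Leaving out an array gave -0.047 to 0.14 for Ins1, -0.087 to 0.17 for Ins2, -0.14 to 0.24 for Gcg, -0.041 to 0.057 for Sst, -0.14 to 0.25 for Ppy, -0.13 to 0.14 for Pyy and -0.27 to 0.26 for Ghrl. For Spink3-/-XKI/+ against wild type, the row block gave -0.065 for Ins2, and leaving out an array -0.078 to 0.32 for Gcg and -0.17 to 0.39 for Iapp. Between the mutants, it gave -0.13 to 0.27 for Gcg and -0.52 to 0.01 for Ghrl.

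Among the other named genes 18 of 1511 settings turned sign, 7 added a call and 1 lost one. In Spink3-/- against wild type, the row block gave -0.012 for Npy4r, and leaving out an array -2.39 to 0.005 for Pdx1 and -0.012 to 0.90 for Npy4r. In Spink3-/-XKI/+ against wild type, the row block gave -0.047 for Gp2, -0.28 for Gcgr, 0.61 for Fgb, -0.05 for Tubb3, -0.23 for Npy4r and -0.24 for Sstr3. Leaving out an array gave -2.09 to 0.31 for Pdx1, -0.97 to 0.08 for Gal, -0.59 to 1.497 for Tff3, -0.16 to 1.70 for Afp and -1.41 to 0.17 for Fgb. Between the mutants, the row block gave 0.023 for Nnat, and leaving out an array -0.98 to 0.023 for Nnat, -2.02 to 0.24 for Ahsp and -1.40 to 0.69 for Tff3. The cause of these turns was not tested.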

Other observations

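Lists of other tissues and cells are given here beside the hormones, with 0 members called. In Spink3-/- against wild type, Serpina1a and Afp, secreted proteins of the liver, stood at 2.15 (SE 0.34, limma adjusted p = 0.424) and 2.30 (SE 0.64, limma adjusted p = 0.863), and the median over 15 liver genes was 1.34. Between the mutants, Serpina1a was at -2.22 and Fgb, a fibrinogen chain, at -1.74. In Spink3-/-XKI/+ against wild type, Afp was at 0.77 and Fgb at -0.62. With the arrays of Spink3-/- and wild type alone, Serpina1a passed (limma adjusted p = 0.0443).

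Of 5 blood genes tested, the medians were -0.58, -0.99 and -0.50 in the order Spink3-/- against wild type, Spink3-/-XKI/+ against wild type and between the mutants. Ahsp, the chaperone of alpha globin, stood at -1.26, -2.15 and -0.89, Slc4a1, the red cell anion exchanger, at -1.003 and -1.50 against wild type, and Hba-a1, alpha globin, at -0.55 between the mutants. Without the first Spink3-/-XKI/+ array, Ahsp (-3.28, limma adjusted p = 0.0358) and Slc4a1 (-2.09, limma adjusted p = 0.0273) passed against wild type.

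Of 16 duct genes tested, medians were -0.02, 0.08 and 0.06. Krt8, a keratin of duct and other epithelia, stood at 0.94 in Spink3-/- against wild type and -0.69 between the mutants, Car2, a carbonic anhydrase, at -1.17 and -1.19 against wild type, and Onecut2 at 0.55 in Spink3-/-XKI/+ against wild type and 1.12 between the mutants. Of 12 genes of mesenchyme and vessels, the medians were -0.02, 0.13 and 0.12. Acta2, smooth muscle actin, stood at 0.79, 1.66 and 0.87, Cdh5, an endothelial cadherin, at -0.57 and -0.86 against wild type, and Pdgfra at 0.53 between the mutants.

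Of 12 genes of nerve and glia, the medians were 0.06, 0.38 and 0.19. Tubb3, a neuronal tubulin, stood at 0.92 and 0.84 against wild type. Prph, peripherin, stood at 0.25 in Spink3-/- against wild type, and at 1.74 against wild type and 1.49 between the mutants in Spink3-/-XKI/+, whose arrays were at -0.56 and 2.21. Without the first of these arrays Prph passed in both (3.12, limma adjusted p = 0.0261, and 2.87, limma adjusted p = 0.0311). Elavl4 was at -0.31 between the mutants.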
